A study of Arabidopsis thaliana with 21 samples.

Results

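ARR15 (AT1G74890) and RR16 (AT2G40670, also called ARR16) are type-A response regulator genes of Arabidopsis thaliana, and they are described here across 7 groups of hypocotyls, the stem below the seed leaves. The members were taken by name. They are the genes that the array's probe annotation names alone as ARR15 (probe set 262212_at) or RR16 (probe set 266078_at), which gave 2 of 22746 probe sets tested, and no probe set named either gene together with another. Transcripts were measured on 21 arrays, 3 for each group, and each array held RNA from 120 to 150 pooled hypocotyls of 2-week-old plants collected 24 h after treatment. The groups were the max2, max1 and max3 mutants, Col-0 wild type given NPA at 3 mg per mL, Col-0 decapitated and given the auxin IAA at the same strength, Col-0 decapitated, and intact Col-0. Lanolin with less than 10% ethanol was applied in all 7 groups. IAA is the main natural auxin and NPA blocks polar auxin transport. Strigolactones, hormones that restrain branching, need MAX1 and MAX3 for their synthesis and MAX2 for the response to them, and loss of any of the 3 genes gives more shoot branches. The mutant alleles are not given in the sources used here.

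Type-A response regulators belong to the cytokinin pathway. Cytokinin is perceived by histidine kinase receptors, which pass phosphate through AHP proteins to type-B response regulators, and these DNA-binding factors switch on target genes. The type-A genes are among the first of those targets, and their short proteins, made mostly of a receiver domain with no DNA-binding part, dampen the pathway that induced them. Transcripts of type-A genes are for this reason widely read as a record of cytokinin response, although some of the genes also answer to auxin, as ARR7 and ARR15 do in the embryonic root. In the stem, auxin from the shoot tip holds back lateral buds while cytokinin promotes their growth.

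Values are log2 probe set values, differences are differences of these values, and ± after a difference is the SE of a limma model fitted to all 21 arrays. Rose, fell, higher and lower are used for an adjusted p below 0.05, Benjamini-Hochberg over the 22746 probe sets. Array medians lay between 6.11 and 6.35, and between 35.7% and 36.4% of the probe sets of an array had a value below 3.5, where values pile up near background. Precision is limited by having 3 arrays in a group. Levels of ARR15 and RR16 were not set against each other, because they come from different probe sets.

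Decapitation moved the pair in opposite directions. ARR15 had 4.86, 5.10 and 5.45 in decapitated hypocotyls, against 8.57, 8.84 and 9.08 in intact ones, so that the highest decapitated array lay far below the lowest intact array. ARR15 fell by 3.69 ± 0.32, or 12.9-fold (limma adjusted p = 4.1e-07), and the size of this change exceeded that of 98.9% of probe sets. RR16 had 6.31, 5.88 and 6.71 in decapitated hypocotyls, against 2.66, 2.62 and 2.83 in intact ones. All 3 intact arrays lay below 3.5 and all 3 decapitated arrays well above it. RR16 rose by 3.60 ± 0.28 (limma adjusted p = 1.2e-07). Because its intact values lie near background, this difference is at best a lower bound on the change in transcript, and the same holds for every RR16 difference below between a group above 3.5 and a group under it. In this comparison 26.2% of all probe sets were called in either direction. Between arrays that share a replicate number, ARR15 changed by -3.71, -3.74 and -3.63 and RR16 by 3.66, 3.26 and 3.89, so each pair showed its gene's direction.

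**Figure D1:**
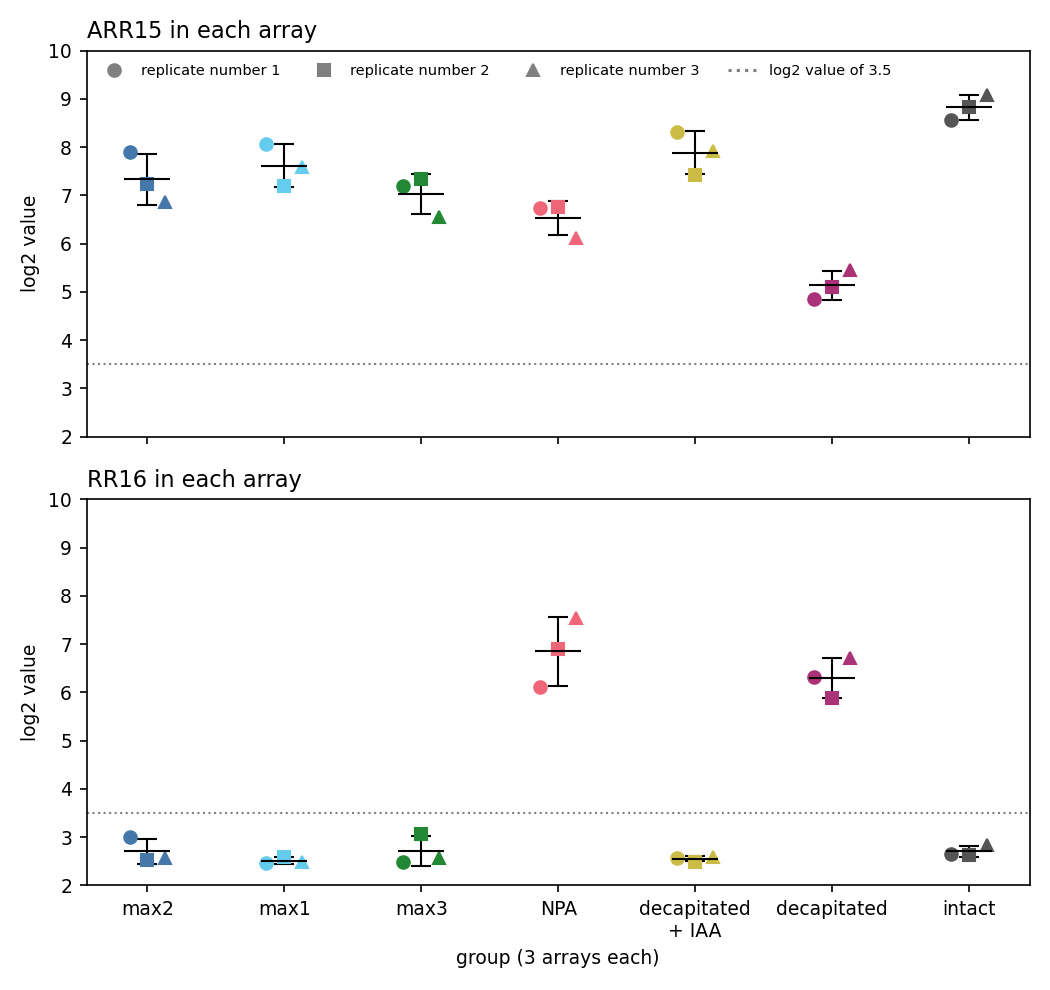
Log2 values of ARR15 (top) and RR16 (bottom) in the 7 groups, with 1 point per array, its shape giving the replicate number, and the mean ± SD of 3 arrays in black. ARR15 was lowest in decapitated hypocotyls (4.86 to 5.45) and highest in intact ones (8.57 to 9.08), while RR16 stood above 3.5, the dotted line, in the NPA and decapitated groups and below it in the other 5.

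Decapitation with IAA was compared with decapitation alone to see whether auxin acted on either transcript once the shoot tip was gone. ARR15 had 8.32, 7.42 and 7.92 in decapitated plants with IAA, against 4.86, 5.10 and 5.45 without it, and rose by 2.75 ± 0.32 (limma adjusted p = 1.2e-05). RR16 had 2.58, 2.49 and 2.59 with IAA, against 6.31, 5.88 and 6.71 without it, and fell by 3.75 ± 0.28 (limma adjusted p = 9.9e-08). Neither gene's arrays overlapped between these groups, and 22.9% of all probe sets were called. RR16 with IAA thus lay below 3.5 in all 3 arrays.

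Decapitated plants with IAA were also set against intact plants, a comparison in which 8.67% of probe sets were called, or 2962 probe sets with a replicate block against 1971 without. ARR15 averaged 7.89 ± 0.45 with IAA and 8.83 ± 0.26 in intact plants (SD, n = 3 each). The difference of -0.94 ± 0.32 did not pass the test (limma adjusted p = 0.0864, 95% interval -1.62 to -0.26), although all 3 IAA arrays lay below the lowest intact array. RR16 averaged 2.55 ± 0.05 with IAA and 2.70 ± 0.11 in intact plants (SD, n = 3 each), a difference of -0.15 ± 0.28 (limma adjusted p = 0.81, 95% interval -0.74 to 0.44). Both means lay in the range near background, where a further drop would be hard to see. On the log2 scale and within each replicate number, IAA undid 93.4%, 62.1% and 67.9% of the ARR15 change after decapitation, with a mean of 74.5% ± 16.7 (SD, n = 3). For RR16 the same share was 102%, 104% and 106%, and since its intact and IAA values both lie near background these shares say only that it returned to that range. The IAA, decapitated and intact arrays enter this share together, so it is a description and was not tested.

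NPA was given to plants that were not decapitated. ARR15 had 6.73, 6.76 and 6.12 in NPA-treated hypocotyls, against 8.57, 8.84 and 9.08 in intact ones, and fell by 2.29 ± 0.32 (limma adjusted p = 5.2e-05). RR16 had 6.12, 6.90 and 7.53 with NPA, against 2.66, 2.62 and 2.83 in intact plants. RR16 rose by 4.15 ± 0.28 (limma adjusted p = 2.9e-08), again measured from values near background. Of all probe sets 27.8% were called. As after decapitation, ARR15 was lower and RR16 higher than in intact plants. Both comparisons use the same 3 intact arrays.

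The NPA and decapitated groups were compared directly, and 2.35% of probe sets were called, or 1068 probe sets with a replicate block against 535 without. ARR15 averaged 6.54 ± 0.36 with NPA and 5.14 ± 0.30 after decapitation (SD, n = 3 each), and its arrays did not overlap. It was higher with NPA by 1.40 ± 0.32 (limma adjusted p = 0.0313), but this call was lost in a fit of these 6 arrays alone (adjusted p = 0.144), with array quality weights (0.10), and without decapitated replicate 1 (0.0959), decapitated replicate 2 (0.101), NPA replicate 1 (0.099) or NPA replicate 2 (0.10). RR16 averaged 6.85 ± 0.71 with NPA and 6.30 ± 0.42 after decapitation (SD, n = 3 each), its arrays overlapped, and the difference of 0.55 ± 0.28 did not pass the test (limma adjusted p = 0.424, 95% interval -0.04 to 1.14). Against decapitated plants with IAA, where 35.6% of probe sets were called, NPA-treated plants had ARR15 lower by -1.35 ± 0.32 (limma adjusted p = 0.00515) and RR16 higher by 4.30 ± 0.28 (limma adjusted p = 2.1e-08).

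The max mutants, which were not decapitated, were compared with intact wild type. ARR15 had 7.90, 7.24 and 6.86 in max2, 8.07, 7.19 and 7.59 in max1 and 7.21, 7.34 and 6.55 in max3, against 8.57, 8.84 and 9.08 in intact wild type. All 9 mutant arrays lay below the lowest wild-type array. Taken as the mean of the mutants, ARR15 was lower by -1.50 ± 0.26 (limma adjusted p = 0.00303), where 5.28% of probe sets were called. With the replicate number as a block 2010 probe sets were called, against 1200 without, and the ARR15 call was kept (adjusted p = 0.00278). Within the replicate numbers the mean of the mutants differed from wild type by -0.84, -1.58 and -2.08.

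Singly, ARR15 was lower by -1.80 ± 0.32 in max3 (limma adjusted p = 0.00853), by -1.50 ± 0.32 in max2 (0.0165) and by -1.21 ± 0.32 in max1 (0.0478), in comparisons that called 2.02%, 3.12% and 3.74% of probe sets. With the replicate block these comparisons called 971, 1169 and 1418 probe sets in place of 459, 710 and 851, and the 3 ARR15 calls were kept. All 3 single calls were lost in fits of only the 2 groups compared (adjusted p 0.078 for max3, 0.164 for max2 and 0.14 for max1). The max1 call was also lost after a second quantile normalization (0.0539), and without any 1 intact array, max1 replicate 2 or max1 replicate 3 (0.0676 to 0.171). The max2 call was lost without intact replicate 2 or 3 and max2 replicate 2 or 3 (0.0553 to 0.0716). The max3 call and the call on the mean of the mutants were kept whichever array was left out.

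RR16 stayed below 3.5 in all 9 mutant arrays. It had 3.01, 2.53 and 2.57 in max2, 2.45, 2.59 and 2.48 in max1 and 2.49, 3.06 and 2.57 in max3, against 2.66, 2.62 and 2.83 in intact wild type. The max2 and max3 arrays overlapped the wild-type arrays and the max1 arrays lay just below them, and the mean of the mutants differed by -0.06 ± 0.23 (limma adjusted p = 0.89, 95% interval -0.55 to 0.42). The model shares 1 spread over all groups, and the SD of RR16 was 0.71 with NPA and 0.42 after decapitation but 0.05 to 0.31 in the other 5 groups. Its SE is therefore wide for groups near background and narrow for the NPA and decapitated groups.

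Among the mutants no difference in either gene passed the test. ARR15 in max2 differed from the mean of max1 and max3 by 0.01 ± 0.28 (limma adjusted p = 0.998, 95% interval -0.58 to 0.59) and RR16 by 0.10 ± 0.24 (adjusted p = 0.977), where 0.171% of probe sets were called. ARR15 in max1 differed from max3 by 0.59 ± 0.32 (adjusted p = 0.933, 95% interval -0.09 to 1.27) and RR16 by -0.20 ± 0.28 (adjusted p = 1.00), where 0.361% were called. With a replicate block 144 probe sets were called between max1 and max3, against 82 without. Against decapitated wild type, where 47.3% of probe sets were called, the mean of the mutants was higher in ARR15 by 2.19 ± 0.26 (limma adjusted p = 7.1e-06) and lower in RR16 by -3.66 ± 0.23 (adjusted p = 5.4e-09).

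**Figure D2:**
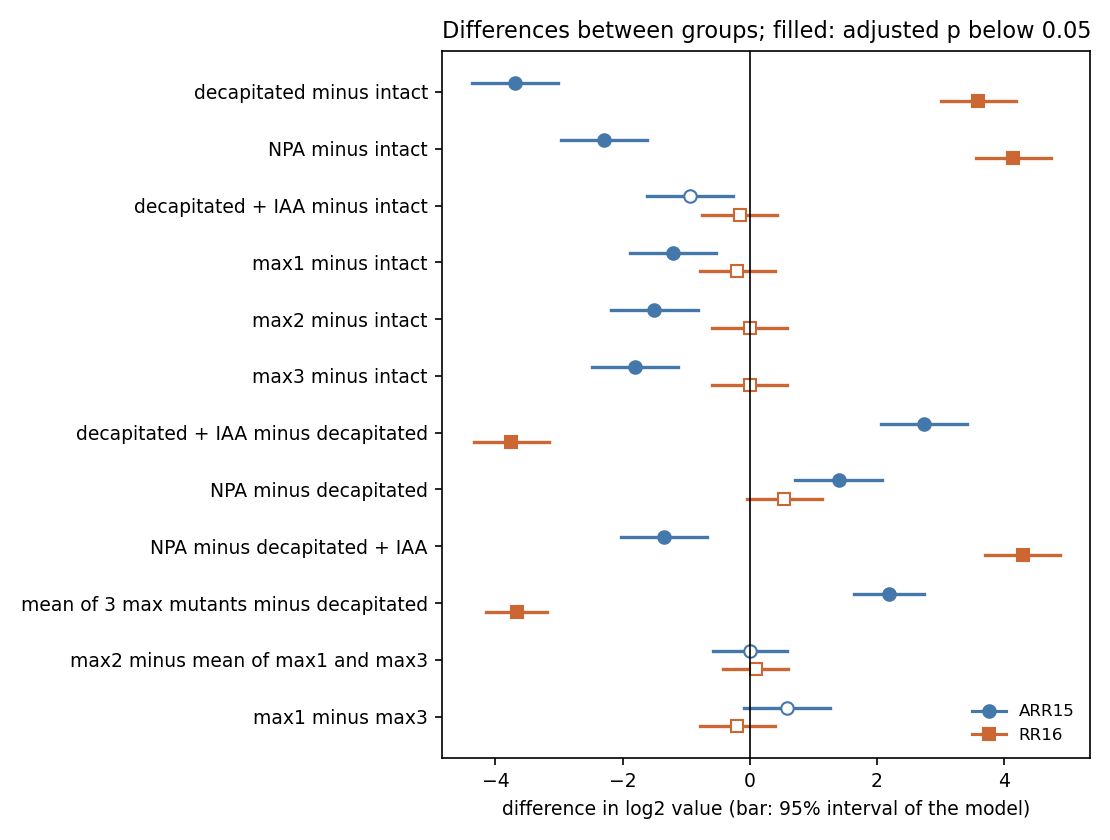
Differences in log2 value (horizontal axis) for ARR15, circles, and RR16, squares, in 12 comparisons, with 95% intervals of the model on 3 arrays per group and filled symbols for an adjusted p below 0.05. The genes lie on opposite sides of 0 for decapitation and for NPA against intact plants, and only ARR15 passed the test in the max1, max2 and max3 rows, with differences of -1.21, -1.50 and -1.80.

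The order of the group means differed between the genes. For ARR15 it ran from decapitated (5.14) through NPA (6.54), max3 (7.03), max2 (7.33), max1 (7.62) and decapitated with IAA (7.89) to intact (8.83). Of the 6 steps between neighbours, the step from decapitated to NPA passed the test and the others did not, their adjusted p running from 0.0864 (decapitated with IAA against intact) to 1.00 (max2 against max1). The comparisons of these neighbours that are not given above called 42.1% of probe sets (max3 against NPA), 0.18% (max2 against max3), 0.259% (max2 against max1) and 13.3% (max1 against decapitated with IAA). For RR16 the means of max1 (2.51), decapitated with IAA (2.55), max2 (2.70), intact (2.70) and max3 (2.70) were not told apart. The next mean, decapitated, was 6.30, and max3 minus decapitated was -3.60 ± 0.28 (limma adjusted p = 1.3e-07, with 32.4% of probe sets called). NPA stood at 6.85. ARR15 thus took a range of intermediate values while RR16 was either near background or several log2 units above it.

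The joint values of both genes were read array by array. The NPA arrays spanned 6.12 to 6.76 in ARR15 and max3 replicate 3 had 6.55, inside that span. In the same array RR16 had 2.57, against 6.12 to 7.53 in the NPA arrays. The other mutant arrays had ARR15 at 6.86 to 8.07, above the NPA span, so this overlap rests on 1 array. No mutant array reached the decapitated span of 4.86 to 5.45. Across the mutants an ARR15 value below those of intact plants was not accompanied by RR16 above 3.5. Since RR16 falls into 2 separate sets of arrays, 6 above and 15 below 3.5, no pooled correlation between the genes is given.

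**Figure D3:**
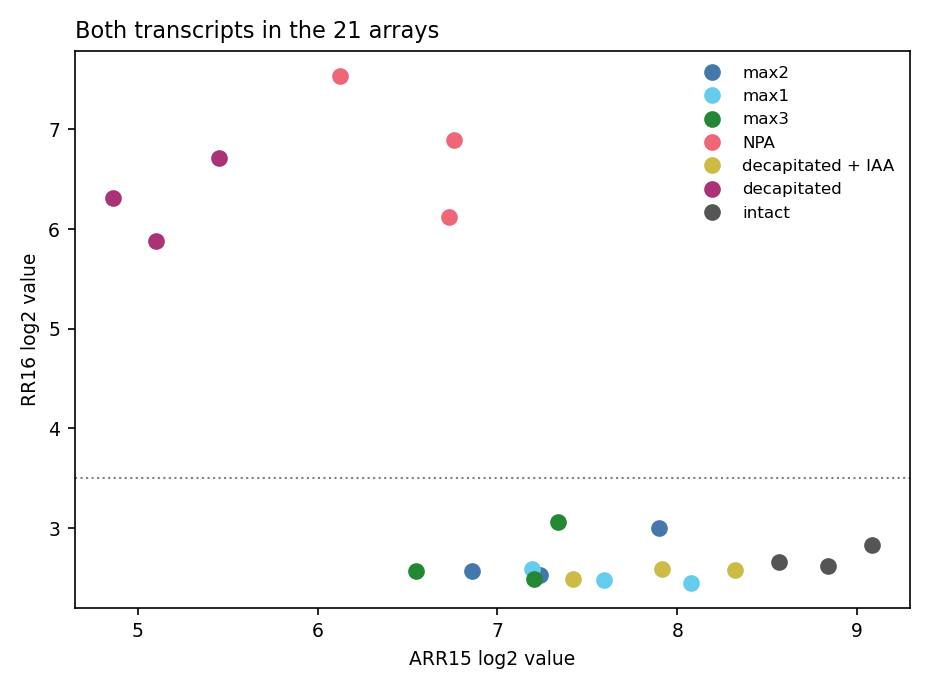
RR16 log2 value (vertical) against ARR15 log2 value (horizontal) in the 21 arrays, coloured by group, with the dotted line at 3.5. The 3 NPA and 3 decapitated arrays lie above the line, and the other 15 lie below it at ARR15 values from 6.55 to 9.08.

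Few other genes of the pathway could be read. Of 64 genes in 7 lists (type-A and type-B regulators, receptors, phosphotransfer proteins, synthesis, degradation and conjugation, and cytokinin response factors), 6 had a probe set naming them alone: ARR15 and RR16 of 10 type-A genes, ARR18 and ARR19 of 11 type-B genes, and UGT76C1 and UGT76C2 of 10 degradation and conjugation genes. The receptor, phosphotransfer, synthesis and response factor lists were not analysed here for want of named probe sets. The type-B genes ARR18 (1.98 to 2.11 over the 21 arrays) and ARR19 (2.30 to 2.45) stayed near background. By limma neither was called in any of the 13 comparisons, and at an unadjusted p below 0.05 at most 1 of the 2 was counted in a comparison. RR22 (AT3G04280), a type-C regulator, and RR23 (AT5G62120) were added after their values were seen and lay between 2.11 and 2.67 over both genes, near background. RR22 and RR23 were both called higher for NPA against decapitated with IAA (by 0.12 and 0.066, limma adjusted p = 0.00928 and 0.0409). That comparison called 35.6% of all probe sets, with a median difference of 0.056 over all and 0.06 for the uncalled type-B pair. Both were called lower for the mean of the max mutants against decapitated (-0.075 and -0.05, limma adjusted p = 0.0271 and 0.0446). There 47.3% of probe sets were called, and the median was -0.053 over all and -0.048 for the type-B pair. The RR23 differences thus lay close to the medians over all probe sets.

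UGT76C1 (AT5G05870) and UGT76C2 (AT5G05860), enzymes that inactivate cytokinin by adding glucose, also moved apart after decapitation. In that comparison 26.2% of all probe sets were called. UGT76C1 averaged 6.33 ± 0.46 in decapitated and 7.34 ± 0.35 in intact hypocotyls (SD, n = 3 each) and fell by 1.01 (SE 0.27, limma adjusted p = 0.00957), the direction of ARR15. UGT76C2 averaged 8.60 ± 0.05 in decapitated and 7.62 ± 0.21 in intact hypocotyls (SD, n = 3 each) and rose by 0.99 ± 0.19 (adjusted p = 8.0e-04), the direction of RR16. With IAA, UGT76C1 rose by 1.04 ± 0.27 against decapitation alone (adjusted p = 0.0099), while UGT76C2 stood at -0.36 ± 0.19 and did not pass the test (adjusted p = 0.157). There 22.9% of probe sets were called. Against intact plants, where 8.67% were called, decapitated plants with IAA had UGT76C2 at 0.62 ± 0.19 (limma adjusted p = 0.0507). UGT76C1 stood there at 0.03 ± 0.27 (adjusted p = 0.968), and neither passed the test. UGT76C2 rose with NPA by 1.07 ± 0.19 (adjusted p = 4.1e-04), and UGT76C1 stood at -0.52 ± 0.27 (adjusted p = 0.155). With NPA 27.8% of probe sets were called. In the mean of the max mutants neither passed the test, with UGT76C1 at 0.19 ± 0.22 and UGT76C2 at -0.15 ± 0.15 against intact wild type.

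Auxin-response and tissue markers were read beside these results. Of 16 auxin-response genes 8 were measured. All 8 rose with IAA against decapitation alone, where 22.9% of all probe sets were called, with a median difference of 5.78 beside -0.04 over all probe sets. Against intact plants all 8 were also higher with IAA, by a median of 3.59 beside -0.02, and 8.67% of probe sets were called. ARR15 stood at -0.94 in that comparison and did not pass the test. After decapitation 3 of the 8 fell and none rose, with a median of -0.32 beside 0.03, and likewise with NPA, with a median of -0.46 beside 0.04. Over all probe sets 26.2% and 27.8% were called in these comparisons in either direction. The share called lower, the direction of these 3 genes, was smaller, with its counts given in the last section. IAA29, GH3.1, LBD16 and LBD29 averaged 1.99 to 2.12 in intact plants, near background, where a fall would be hard to see. After decapitation and with NPA, IAA30 stood at -3.51 and -3.76, WES1 at -3.27 and -2.29, and HAT2 at -4.65 and -7.01. GH3.3 stood at -0.64 and -0.94 and did not pass the test. In the mean of the max mutants, where ARR15 was lower, limma called 0 of the 8, and 2 had an unadjusted p below 0.05, in opposite directions (GH3.3 at 2.28 and WES1 at -1.25). In single mutants WES1 was lower in max2 by -2.18 (limma adjusted p = 0.0443) and GH3.3 was higher in max3 by 3.45 (adjusted p = 0.0497). GH3.3 stood at 2.91 in max1 (adjusted p = 0.0754) and 0.47 in max2 (adjusted p = 0.939), and neither passed the test. The vascular genes MOL1 and OPS, the measured 2 of 8 vascular markers, were called in the direction of ARR15 after decapitation, with NPA against intact plants, and with IAA against decapitation alone. For NPA against decapitated, where ARR15 was higher, MOL1 stood at -0.27 and OPS at -0.51, and neither passed the test. In the mean of the max mutants, where ARR15 was lower, MOL1 stood at -0.38 (limma adjusted p = 0.202) and OPS at -0.17 (adjusted p = 0.686). Their summed log2 level was 14.7 to 15.5 with NPA, 17.4 to 17.8 in decapitated plants with IAA, 15.0 to 16.5 in decapitated plants and 18.0 to 18.6 in intact plants. It was 17.7 to 18.0 in max2, 16.4 to 18.3 in max1 and 17.4 to 17.8 in max3. The part of vascular tissue in the ARR15 and RR16 results was not tested, and in whole hypocotyls fewer cells of a type and less RNA per cell cannot be told apart.

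The stomatal-lineage genes SPCH, MUTE and FAMA, 3 of 6 markers, stayed between 1.94 and 2.36 in all 21 arrays, including those with high RR16. The shoot apex genes CLV3 and UFO, 2 of 6, stayed between 1.80 and 2.05, and the root hair gene EXPA7, 1 of 5 root markers, between 1.81 and 1.88. The leaf genes RCA and LHCB4.2, 2 of 5, were high in all arrays (11.7 to 13.9), and their summed level overlapped between decapitated (24.6 to 26.2), NPA-treated (24.5 to 26.1) and intact hypocotyls (24.6 to 24.8). These lists hold no gene particular to the hypocotyl, so the labelled tissue was checked only through the other tissues' markers.

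The genes next to each member on the chromosome were read in the same comparisons. Of the 3 protein-coding genes on each side of ARR15, 4 were measured. After decapitation, where 26.2% of all probe sets were called, none of them fell and 1 rose, AT1G74910 by 0.70, and none fell with NPA, where 27.8% were called and the same gene rose by 0.68. With IAA against decapitation alone AT1G74910 fell by 1.01 and the other 3 did not pass the test. In the mean of the max mutants AT1G74910 was lower by -0.50 (limma adjusted p = 0.00284), the direction of ARR15, and the other 3 did not pass the test. Around RR16 4 of 6 were measured. After decapitation AT2G40650 rose by 0.52 and AT2G40640 fell by 1.33, and with NPA none of the 4 rose and AT2G40640 fell by 1.54. With IAA against decapitation alone AT2G40640 rose by 1.09 and the other 3 did not pass the test. For decapitation, NPA and IAA, where 26.2%, 27.8% and 22.9% of all probe sets were called, a count of 1 in 4 is near that share. Around RR16 after decapitation the count was larger, with AT2G40650 and AT2G40640 both called. In the mean of the max mutants 5.28% were called, below 1 in 4 for the ARR15 neighbours, and 0 of the 4 RR16 neighbours were called. The neighbours were taken from RefSeq's TAIR10.1 gene order after the data were seen.

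Transcripts with the most similar profile were listed by Pearson's r over the 21 arrays, among 505 probe sets that name 1 gene with a symbol and whose group means span at least 1 on the log2 scale. The r is a description, since arrays of a group share their treatment. For ARR15 the highest were DRT100 (AT3G12610, r = 0.895), the carboxypeptidase-like gene SCPL27 (AT3G07990, 0.862), the RALF signalling peptide gene RALFL34 (AT5G67070, 0.86), PRA1.B6 (AT5G07110, 0.845) and the endoglucanase gene GH9B8 (AT2G32990, 0.834). DRT100 shared the graded order in part, at 10.6 with NPA, 11.4 to 11.6 in the mutants, 11.1 in decapitated plants with IAA, 10.1 in decapitated and 12.4 in intact plants. With group means removed, r with ARR15 was 0.656 for DRT100 and 0.195 to 0.518 for the other 4. The most opposite were the sugar transporter gene SFP2 (AT5G27360, -0.899), FMO (AT1G12200, -0.858) and the plastid gene ccsA (-0.838). With group means removed their r with ARR15 was -0.642 (SFP2), -0.164 (FMO) and -0.136 (ccsA).

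For RR16 the highest were M17 (AT2G41260, r = 0.973), the gibberellin receptor gene GID1A (AT3G05120, 0.958), DELTA-OAT of ornithine metabolism (AT5G46180, 0.951), TRM26 (AT2G17550, 0.946) and the MYB factor gene MYBC1 (AT2G40970, 0.944). The most opposite were SETH6 (AT2G47860, -0.976), the expansin gene EXPA4 (AT2G39700, -0.966) and the thaumatin-like gene ATLP-1 (AT1G18250, -0.964). These values rest on the gap between the 6 NPA and decapitated arrays and the other 15. With group means removed, r with RR16 for the 5 highest ran from -0.561 (TRM26) to 0.315 (MYBC1). For the most opposite genes it was -0.307 (SETH6), 0.245 (EXPA4) and 0.232 (ATLP-1).

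**Figure D4:**
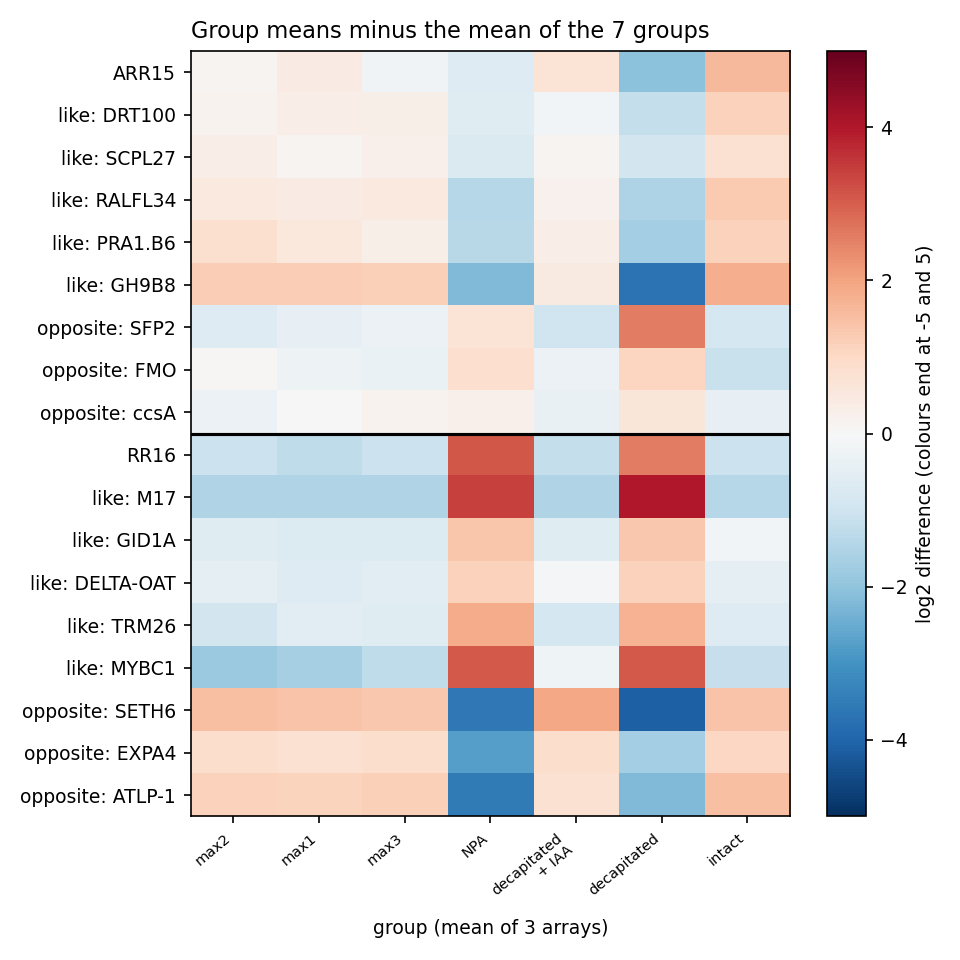
Group means (3 arrays each) minus the mean over the 7 groups, in log2 units by colour, for ARR15 and RR16 and the genes most like and most opposite to each. ARR15 was lowest with NPA and after decapitation (6.54 and 5.14), as were the 5 genes like it, while RR16 and the genes listed with it split the NPA and decapitated columns from the other 5.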

How the data were processed

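The deposited values are log2 values of one probe set per row and one array per column, and per the submitters' processing notes RMA, GCRMA and R 3.2.2 were used, in roles not given in the sources used here. Per the labels, RNA (4 µg per array) was labelled with biotin and 120 to 150 hypocotyls made up each of 3 biological replicates. They entered the model as deposited. Of 22810 probe sets 64 controls were left out. The probe annotation named 1 gene for 13513 of the rest, several for 503 and none for 8730. 0 arrays were identical, and arrays of a group correlated at 0.985 to 0.995.

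Group means were fitted on all 21 arrays with limma 3.58.1 in R 4.3.3 (14 residual and 1.03 prior degrees of freedom), two-sided, adjusted within each of 13 comparisons, and the fit was tested on simulated data. The members, the gene lists and the comparisons were chosen with earlier results of these data known. ARR15 and RR16 were always named. Up to 4 members of each cytokinin list with the smallest p were named, as were the 5 probe sets most like and 3 most opposite to each regulator. Other lists were read as markers.

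Arrays with the same replicate number were treated at the same time per the labels, which pairs them. Residual correlations had a median of 0.361 within a number (0.427, 0.127 and 0.401 for numbers 1, 2 and 3) and -0.123 between numbers of different groups. Other settings tried were subtracted array medians, a second quantile normalization, a filter on dim probe sets (a mean of at least 3.5 in some group), array weights, robust estimation with an intensity trend, a model limited to the groups being compared, replicate blocks, and each array left out in turn.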

Additional observations from a re-analysis of the deposited data

Results flagged for a closer look

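The difference between the NPA and the decapitation effect on ARR15 was listed for a closer look. The reason was that decapitation and a block of polar auxin transport, set against the same intact plants, gave changes of different size. ARR15 was higher with NPA than after decapitation by 1.40 ± 0.32 on the log2 scale (SE, limma adjusted p = 0.0313, n = 3 each). Within the replicate numbers the difference was 1.87, 1.65 and 0.67, so it was positive in 3 of 3 pairs. Over its alternatives the adjusted p ran from 0.0172 to 0.144. In the same comparison, where 2.35% of probe sets were called, the auxin-response gene HAT2 went the other way. It was lower with NPA than after decapitation by -2.35 (limma adjusted p = 0.00256). Of the 8 measured auxin-response genes 1 was called lower there and 0 higher, and their median difference was 0.005. WES1 stood at 0.98, IAA30 at -0.25 and GH3.3 at -0.30, and none of these passed the test. Whether the ARR15 difference reflects a different auxin loss was not tested.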

How the results depend on the processing

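The calls on both genes for decapitation, IAA after decapitation and NPA against intact plants, and on ARR15 for the mean of the max mutants, kept their direction and their side of 0.05 under every alternative run. With the replicate block no call on either gene changed, and the counts of probe sets called became 2962 for IAA against intact, 1068 for NPA against decapitated, 1418, 1169 and 971 for max1, max2 and max3, 2010 for the mean of the mutants and 144 for max1 against max3 (1971, 535, 851, 710, 459, 1200 and 82 without it).

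Fits of only the groups compared hold fewer arrays. ARR15 then missed the threshold for NPA against decapitated (1.40, limma adjusted p = 0.144), max1 (-1.21), max2 (-1.50) and max3 (-1.80) against intact. Counts fell to 900 for IAA against intact, 4858 for NPA against IAA (8096 in the fit of all arrays), 198, 106 and 123 for max1, max2 and max3, 5 for max2 against the other mutants (39) and 17 for max1 against max3. For NPA against decapitated limma called 0, with 2557 at an unadjusted p below 0.05.

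A second quantile normalization gave ARR15 -1.22 in max1 (adjusted p = 0.0539) and turned the uncalled RR16 difference in max2 to 0.011. Array weights gave ARR15 1.42 for NPA against decapitated (adjusted p = 0.10) and -0.20 for max2 against the other mutants, and counts of 256 for NPA against decapitated, 2164, 1152 and 1526 for max1, max2 and max3, 2426 for their mean and 280 for max1 against max3. Their causes were not tested.

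Subtracting array medians shifted all differences by 0.11 for decapitation, 0.13 for NPA and -0.16 for the mean of the mutants against decapitated. RR16 in max3 became -0.048. Counts became 11690 for decapitation (8909 higher, 2781 lower, against 2914 and 3037), 12905 for NPA (10056 and 2849, against 3165 and 3163) and 12270 for NPA against IAA (9561 and 2709, against 5005 and 3091). The split became 2191 and 4836 for IAA against decapitated (2508 and 2697), 2969 and 12637 for the mean of the mutants against decapitated (3652 and 7102), 405 and 589 for max1 (436 and 415), 210 and 326 for max3 (227 and 232), and 541 and 897 for the mean of the mutants (590 and 610).

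With 1 array left out, ARR15 ran from -1.44 to -0.996 in max1, -1.78 to -1.26 in max2, 1.26 to 1.61 for NPA against decapitated and -0.28 to 0.24 for max2 against the other mutants. RR16, never called there, ran from -0.15 to 0.085 in max2, -0.17 to 0.11 in max3 and -0.056 to 0.18 for max2 against the other mutants. Counts ran from 1230 to 1847 for IAA against intact, 499 to 639, 450 to 625 and 217 to 306 for max1, max2 and max3, 719 to 1295 for their mean, 6986 to 11007 for it against decapitated, 270 to 518 for NPA against decapitated, 5009 to 7152 for NPA against IAA and 25 to 74 for max2 against the other mutants. Signal near background limits what RR16 can show in 5 of 7 groups.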
